A study of Mus musculus with 18 samples.

Results

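Irf4, Klf4, Relb, Rbpj and Irf2 encode 5 transcription factors known for roles in the cDC2 lineage of mouse dendritic cells. They were taken by gene symbol from a list of such factors and are 5 of the 17903 genes listed in the deposited count tables. All 5 were listed for every subset and all 5 passed the filter on low counts, as 5 of the 13539 genes tested. Levels were compared between 3 subsets sorted from mouse spleen, with 6 RNA-seq libraries each: the conventional type 2 subset (cDC2), the conventional type 1 subset (cDC1) and plasmacytoid dendritic cells (pDC).

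Each subset has 3 samples labelled HDAC1 Mx1-Cre and 3 labelled HDAC1 floxed. All mice received polyI:C, given in the labels as the inducer of recombination, 2 weeks before their cells were sorted, so the controls carry that treatment too. Mx1-Cre is a recombinase driven by an interferon-responsive promoter that is active in many cell types, so it is not limited to dendritic cells. No group without polyI:C was analysed here. The gates were CD11c+ MHCII+ CD64- cells with XCR1 and without CD11b for cDC1, the converse for cDC2, and BST2+ cells with intermediate CD11c for pDC. The column names of the tables matched no sample label, so each library was assigned to the subset its table is named for and 0 libraries were assigned a genotype. The spread within a subset therefore includes any effect of genotype, and the p-values below compare subsets over libraries of both genotypes. The labels do not say whether the samples came from separate mice or the subsets from the same ones, so the p-values measure only the spread between these samples.

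Conventional dendritic cells divide into cDC1, whose development depends on IRF8 and BATF3, and cDC2, for which IRF4, KLF4, RELB, Notch signalling through RBPJ, and IRF2 have each been given a role by gene deletion in mice. IRF4 and IRF2 belong to the interferon regulatory factor family, and IRF2 is best known as an antagonist of IRF1 at interferon response elements. KLF4 is a zinc finger factor of the Krüppel-like family, RELB is the NF-κB subunit of the alternative pathway, and RBPJ is the DNA-binding protein through which Notch receptors regulate their targets. In the spleen, Notch2 and RBPJ are known for maintaining the ESAM-high cDC2 fraction.

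The genes lie on 5 chromosomes of GRCm38, with coordinates from GENCODE M21. Irf4 is at chr13:30749226-30766976 on the plus strand, Klf4 at chr4:55527143-55532466 on the minus strand and Relb at chr7:19606217-19629438 on the minus strand. Rbpj is at chr5:53466152-53657362 and Irf2 at chr8:46739732-46847458, both on the plus strand. Rbpj has processed pseudogenes in the annotation that the tables do not list, so its count may include reads shared with those copies. Whether reads were counted by strand is not stated in the labels.

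RefSeq promoter windows (GRCm38.p6, 250 bases before to 50 bases after the start) were found for 4 of the 5 genes, all but Relb. The windows of Irf4 and Klf4 are shown because these are the 2 genes that separated cDC2 most from cDC1, and that of Irf2 because it held the least common motif searched. Capitals mark matches to the κB-like pattern GGGNNNNNCC in Irf4 and Klf4, and to the interferon response element core GAAANNGAAA in Irf2, on either strand, with overlapping matches run together. The windows are chr13:30748983-30749282 (plus strand) for Irf4, chr4:55532426-55532725 (minus strand) for Klf4 and chr8:46739495-46739794 (plus strand) for Irf2.
Irf4: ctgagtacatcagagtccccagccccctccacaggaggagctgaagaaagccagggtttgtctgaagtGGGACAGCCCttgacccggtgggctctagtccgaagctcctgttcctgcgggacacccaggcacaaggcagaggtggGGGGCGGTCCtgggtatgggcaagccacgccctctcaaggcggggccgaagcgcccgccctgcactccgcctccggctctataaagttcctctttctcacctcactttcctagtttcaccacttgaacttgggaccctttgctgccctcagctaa
Klf4: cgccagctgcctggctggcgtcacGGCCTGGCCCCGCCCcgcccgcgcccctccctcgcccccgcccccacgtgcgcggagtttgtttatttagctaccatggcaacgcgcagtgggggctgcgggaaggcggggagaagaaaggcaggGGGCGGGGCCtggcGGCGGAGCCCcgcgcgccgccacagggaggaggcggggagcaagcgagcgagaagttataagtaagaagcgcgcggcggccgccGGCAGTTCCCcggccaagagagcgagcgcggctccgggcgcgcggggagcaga
Irf2: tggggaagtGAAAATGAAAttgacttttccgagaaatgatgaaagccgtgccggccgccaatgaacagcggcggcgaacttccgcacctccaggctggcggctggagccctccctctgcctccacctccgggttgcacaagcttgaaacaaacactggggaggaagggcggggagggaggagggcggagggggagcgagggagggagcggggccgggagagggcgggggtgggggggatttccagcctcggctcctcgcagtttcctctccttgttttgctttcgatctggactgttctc
The κB-like pattern occurred 2 times in the Irf4 window and 5 times in the Klf4 window, 5 times for Rbpj and 1 time in the Irf2 window, where it is not capitalised, and 50.8% of all 32851 promoter windows held it at least once. The interferon response element core occurred 1 time in the Irf2 window, 241 bases before the start, and 3.44% of all windows held it. The RBPJ core TGGGAA, held by 25.6% of windows, occurred 3 times for Rbpj and 0 times in each of the Irf4, Klf4 and Irf2 windows. The Krüppel-like core CACCC, held by 57.5% of windows, occurred 1 time in each of the Irf4 and Irf2 windows and 0 times in that of Klf4. Counts for Rbpj are summed over its 2 overlapping windows, so a match in the stretch they share was counted in each. They are therefore not comparable with the counts of a single window. These are matches of letters in a window and not measured binding sites.

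The libraries held 25672768 to 33820524 counts in cDC2, 23530860 to 37105002 in cDC1 and 24453121 to 31773453 in pDC. The members were well above the counting limit: the lowest count of any of them was 106, for Irf4 in a cDC1 library. Markers of the subsets followed the labels. All 8 cDC2 markers on the list were higher in cDC2 than in cDC1 and all 8 cDC1 markers lower, and all 8 pDC markers were lower in cDC2 than in pDC. Xcr1, Itgam and Bst2 are among these markers and encode proteins of the sort gates. Of the cDC2 markers, 5 were higher and 2 lower in cDC2 than in pDC. Of all tested genes, 25.7% were higher and 24.8% lower in cDC2 than in cDC1, and 32.2% and 32% against pDC (adjusted p under 0.05). Hdac1, the gene targeted in the study, ranged from 5.78 to 79.7 CPM, counts scaled to a common library total, in cDC2, from 4.94 to 74.6 CPM in cDC1 and from 9.52 to 124.3 CPM in pDC. In bulk RNA, fewer cells of a type and less RNA per cell cannot be told apart.

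The 5 genes did not share one profile. Klf4 was highest in cDC2, Relb fell in steps over cDC2, cDC1 and pDC, Irf4 was high in cDC2 and pDC and low in cDC1, and Rbpj was highest in cDC1. Irf2 differed little between the subsets. In cDC2 minus cDC1, 4 members were higher and 1 was lower (edgeR quasi-likelihood test, Benjamini-Hochberg adjusted p under 0.05), where 25.7% of all tested genes were called higher and 24.8% lower. In cDC2 minus pDC, 4 were higher, 0 lower and 1 not called, against 32.2% of all tested genes higher and 32% lower. In cDC1 minus pDC, 3 were higher, 1 lower and 1 not called, against 34.3% and 32.1%. The median log2 fold change of the members was 1.30, 0.71 and 0.29 in these comparisons, beside -0.01, 0.01 and 0.05 over all tested genes. Because so many genes differ between subsets, a call alone says little, and the sizes below matter more. In the stricter test against a fold of 2 (edgeR glmTreat), 9.85%, 22.1% and 22.2% of tested genes were called in the 3 comparisons. Of the members, Irf4 and Klf4 passed it in cDC2 minus cDC1, Klf4 and Relb in cDC2 minus pDC, and Irf4, Relb and Rbpj in cDC1 minus pDC.

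**Figure D1:**
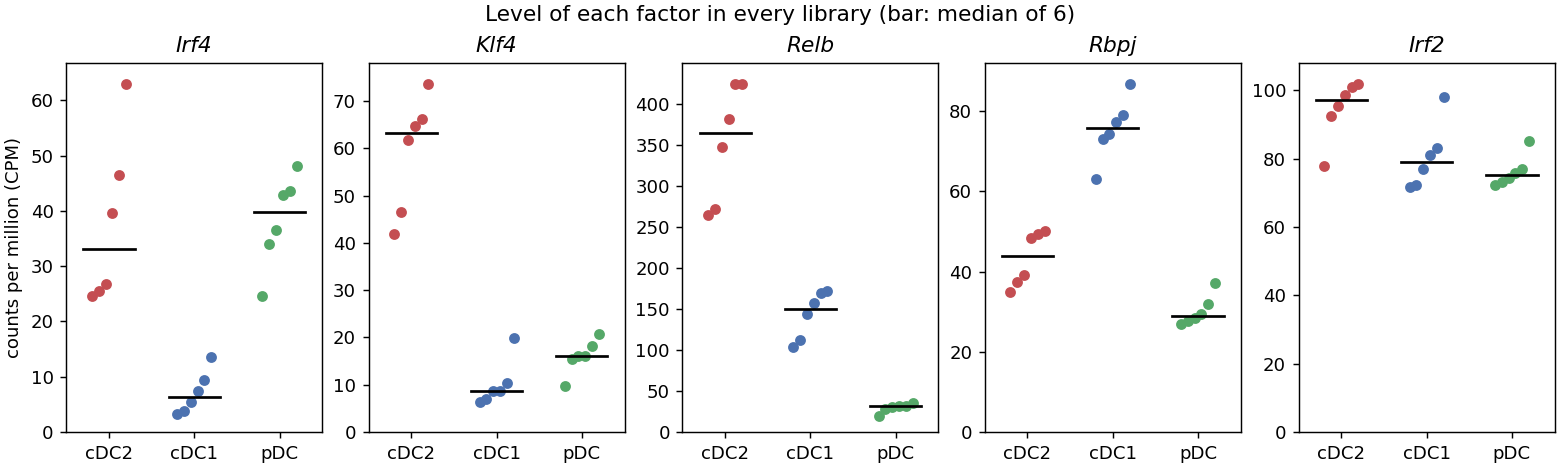
Level of each factor in CPM (y axis, linear, starting at 0) in the 6 libraries of cDC2, cDC1 and pDC, with a bar at the median. Klf4 and Relb sit highest in cDC2, Rbpj highest in cDC1, Irf4 lowest in cDC1, and the Irf2 ranges overlap.

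Irf4, the interferon regulatory factor most tied to cDC2, had 24.6 CPM in its lowest cDC2 library, a median of 33.2 CPM and 63.0 CPM in the highest. In cDC1 the lowest, median and highest values were 3.17, 6.40 and 13.6 CPM, and in pDC 24.6, 39.7 and 48.1 CPM. Every cDC2 library lay above every cDC1 library, while the cDC2 and pDC ranges overlapped almost fully. Irf4 was 5.35-fold higher in cDC2 than in cDC1 (log2 2.42 ± 0.30 SE, edgeR adjusted p = 1.008e-06), and only 4.11% of tested genes had a larger absolute log2 fold change. Between cDC2 and pDC the log2 fold change was 0.17 (1.96 SE either side, -0.37 to 0.71; adjusted p = 0.6143), so neither a rise of up to 0.71 nor a fall of up to 0.37 on the log2 scale can be set aside with these libraries. In cDC1 Irf4 was lower than in pDC by 4.77-fold (log2 -2.25 ± 0.30, adjusted p = 1.186e-06). Irf4 was also the most variable member in cDC2 and cDC1: its SD of log2 CPM was 0.55 in cDC2 and 0.74 in cDC1, and 95.7% and 98.2% of tested genes varied less there. In pDC the SD was 0.34.

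Irf4 is also a plasma cell gene, and plasma cell markers differed between subsets. The summed level of the 6 markers was 145, 171.1 and 178 CPM (lowest, median, highest) in cDC2, where 5 are listed, 206, 309 and 629 CPM in cDC1 and 927, 973 and 1121 CPM in pDC. In pDC it was mostly Xbp1, and Mzb1, Jchain and Sdc1 had medians of 142.8, 94.3 and 18.2 CPM. Not all markers were highest there: Prdm1 had medians of 9.43 CPM in cDC2, 1.28 CPM in cDC1 and 3.44 CPM in pDC. Tnfrsf17 had a median of 0.239 CPM in pDC. The share of Irf4 that comes with these transcripts was not tested. Without the cDC1 library with most plasma cell marker RNA, the Irf4 difference between cDC2 and cDC1 was 2.33 on the log2 scale (adjusted p = 6.12e-06), and without the pDC library with most it was 0.15 between cDC2 and pDC (adjusted p = 0.695). Every cDC1 and pDC library held more of this RNA than any cDC2 library. Leaving out 1 library therefore cannot show its part in the Irf4 levels.

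The balance of Irf4 to Irf8, the family member that directs cDC1 and is abundant in pDC, separated cDC2 from both other subsets. Irf8 had 28.7, 47.5 and 63.3 CPM (lowest, median, highest) in cDC2, 1348, 1662 and 1831 CPM in cDC1 and 4210, 4445 and 4662 CPM in pDC. The log2 ratio of Irf4 to Irf8 counts within a library was -0.35 ± 1.01 (SD, n = 6) in cDC2, -8.01 ± 0.85 in cDC1 and -6.89 ± 0.37 in pDC. The 6 cDC2 libraries ran from -1.36 to 0.80, so some held more Irf4 than Irf8 counts and others fewer, while every cDC1 and pDC library was at -6.45 or below. In the order in which Hdac1 is listed at the end, the cDC2 libraries held 1619, 1019, 1213, 717, 690 and 863 Irf4 counts. Their Irf8 counts were 928, 931, 749, 1633, 1773 and 1987. cDC2 exceeded cDC1 by 7.66 and pDC by 6.54 (exact two-sided permutation test, p = 0.00216 for each, the smallest that 924 assignments allow; 0.00278 adjusted over 9 ratio tests). cDC1 was below pDC by -1.12 (exact p = 0.0238, adjusted 0.0238). A ratio shows unequal levels and not which of its genes moved.

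**Figure D2:**
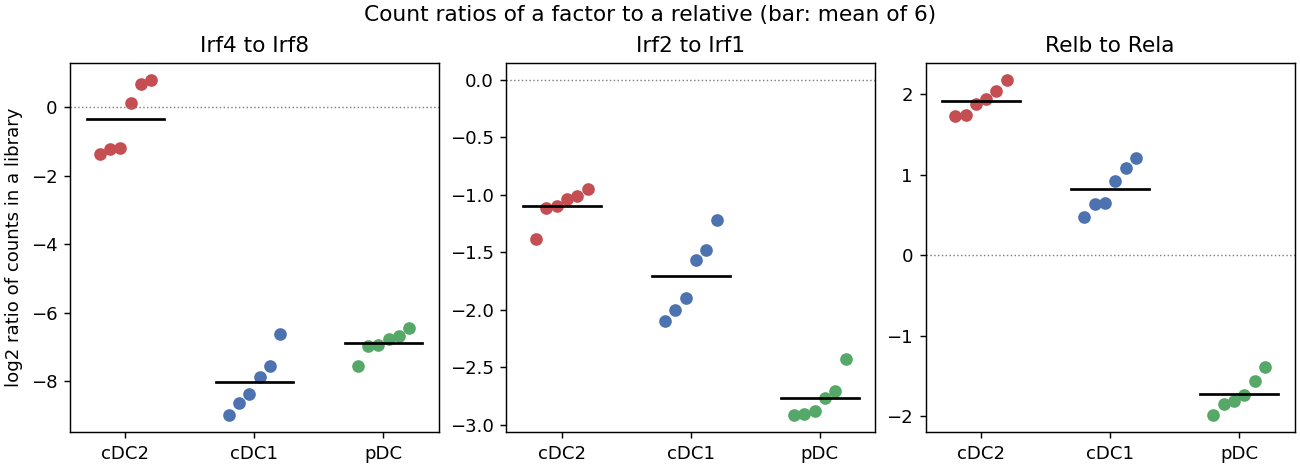
Log2 ratio of counts of a factor to a relative within each library (y axis) for the 6 libraries of cDC2, cDC1 and pDC, with a bar at the mean; the dotted line marks equal counts. The Irf4 to Irf8 ratio averaged -0.35 in cDC2, -8.01 in cDC1 and -6.89 in pDC.

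The other interferon regulatory factors differed in both directions. Of the 6 examined beside the members, 2 were higher and 3 lower in cDC2 than in cDC1 (25.7% and 24.8% of all tested genes), with Irf8 at -5.11, Irf5 at -0.89, Irf1 at -0.42, Irf9 at 0.17 and Irf3 at 0.14 on the log2 scale. Against pDC, 1 was higher, Irf5 at 0.26, and 4 were lower in cDC2 (32.2% and 32% of all tested genes): Irf8 at -6.34, Irf7, the interferon-induction factor abundant in pDC, at -1.99, Irf1 at -1.17 and Irf9 at -0.57. The median over the list was -0.26 in cDC2 minus cDC1 and -0.87 in cDC2 minus pDC, beside -0.01 and 0.01 over all tested genes. Among factors that bind DNA together with IRFs, 3 of 6 tested were higher and 1 lower in cDC2 than in cDC1. Spi1, encoding PU.1, was higher by 0.58 and Batf3 lower by -0.54, while the other called genes of the list had larger changes. Against pDC, 3 of the 6 were higher and 3 lower in cDC2, with Batf3 at 8.19 and Spi1 at 3.42 among the higher.

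Irf2 had the flattest profile. Its lowest, median and highest values were 77.9, 97.2 and 101.9 CPM in cDC2, 71.9, 79.0 and 98.0 CPM in cDC1 and 72.3, 75.2 and 85.1 CPM in pDC, and the CPM ranges of all subsets overlapped. After TMM scaling of library sizes the cDC2 range lay above the pDC range. The difference was called in each comparison, but the folds were small: 1.17-fold higher in cDC2 than in cDC1 (log2 0.23 ± 0.07, adjusted p = 0.007497) and 1.43-fold higher in cDC2 than in pDC (log2 0.51 ± 0.07, adjusted p = 9.05e-07). Of all tested genes, 66.7% and 51.5% had a larger absolute change in these comparisons. Irf2 varied little between libraries, with an SD of log2 CPM of 0.14 in cDC2, 0.17 in cDC1 and 0.08 in pDC. Against Irf1, its antagonist partner, Irf2 was relatively more abundant in cDC2. Irf1 had medians of 200 CPM in cDC2, 299 CPM in cDC1 and 541 CPM in pDC. The log2 ratio of Irf2 to Irf1 was -1.10 ± 0.15 in cDC2, -1.71 ± 0.34 in cDC1 and -2.77 ± 0.18 in pDC (SD, n = 6 each). It was higher by 0.61 in cDC2 than in cDC1 (exact permutation p = 0.00433, adjusted 0.00487) and by 1.67 in cDC2 than in pDC (exact p = 0.00216, adjusted 0.00278). Irf1 is an interferon-induced gene and all mice had received polyI:C; the part of that treatment in the ratio was not tested.

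Klf4 was the member with the sharpest cDC2 peak. It had 41.9, 63.3 and 73.7 CPM (lowest, median, highest) in cDC2, 6.29, 8.58 and 19.8 CPM in cDC1 and 9.75, 16.0 and 20.8 CPM in pDC. Every cDC2 library exceeded every cDC1 and pDC library, while the cDC1 and pDC ranges overlapped. Klf4 was 5.89-fold higher in cDC2 than in cDC1 (log2 2.56 ± 0.23, adjusted p = 1.245e-08) and 4.24-fold higher than in pDC (log2 2.08 ± 0.23, adjusted p = 7.238e-08). Only 3.6% of tested genes had a larger absolute difference between cDC2 and cDC1. Between cDC1 and pDC the log2 difference was -0.48 (1.96 SE either side, -0.92 to -0.03; adjusted p = 0.06913). That value depended on single libraries: it was -0.76 (adjusted p = 0.00089) without the cDC1 library at 19.8 CPM, -0.58 (adjusted p = 0.0277) without the lowest pDC library, and over the 18 fits that each leave out 1 library it ran from -0.76 to -0.37.

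Klf4 is expressed by monocytes and macrophages too, and markers of these cells moved with the subsets. The summed level of 8 markers was 2958, 4510 and 10120 CPM (lowest, median, highest) in cDC2, mostly Lyz2, 977, 1440 and 2279 CPM in cDC1 and 6811, 7070 and 7740 CPM in pDC, mostly Ly6c2. Of the 8, 5 were higher and 1 lower in cDC2 than in cDC1 (25.7% and 24.8% of all tested genes). Against pDC, 7 were higher in cDC2 and 1, Ly6c2, was lower (32.2% and 32% of all tested genes). In cDC2 the medians were 59.1 CPM for C1qa, 115.9 CPM for C1qb and 233.6 CPM for Csf1r. The part of such cells in the Klf4 level was not tested. Without the cDC2 library at 10120 CPM, Klf4 was higher by 2.52 in cDC2 than in cDC1 and by 2.05 than in pDC. Relb was then higher by 1.23 and 3.71. Every cDC2 library held such RNA, with C1qa at 33.6 CPM or more against 8.16 CPM or less in cDC1. Leaving out 1 library therefore cannot show its part in these levels.

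Other Krüppel-like family genes differed in both directions. Of 13 tested genes of the 16 listed for the family beside Klf4, 4 were higher, 1 was lower and 8 were not called in cDC2 minus cDC1, where 25.7% of all tested genes were higher and 24.8% lower. The called ones were Klf13 at 1.53, Klf9 at 1.28, Klf10 at 0.99, Klf11 at 0.58 and Klf3 at -0.63 on the log2 scale. In cDC2 minus pDC, 4 were higher and 4 lower, among them Klf9 at 3.17, Klf2, known for its part in leukocyte quiescence, at -1.32, and Klf11 at -1.09. Klf9 was low throughout, with a median of 4.26 CPM in cDC2. The medians over the family were 0.11 and 0.18.

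**Figure D3:**
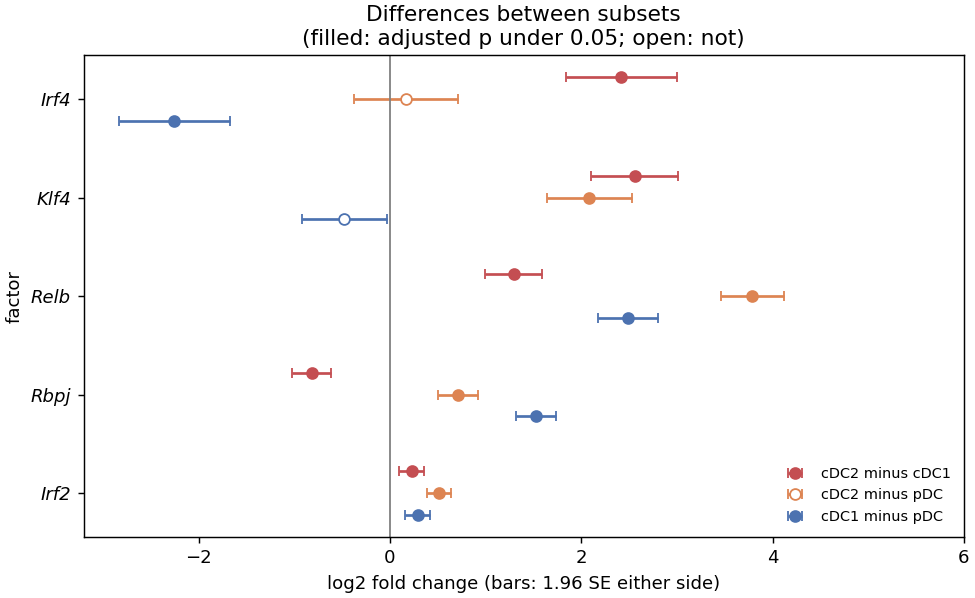
Log2 fold change of each factor (x axis) in cDC2 minus cDC1, cDC2 minus pDC and cDC1 minus pDC, with bars of 1.96 SE either side; filled points had an adjusted p under 0.05. Irf4 in cDC2 minus pDC (0.17) and Klf4 in cDC1 minus pDC (-0.48) are the open points.

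Relb gave the clearest ranking of the subsets and was the most abundant member in both conventional subsets. It had 264, 364 and 425 CPM (lowest, median, highest) in cDC2, 103, 150 and 172.1 CPM in cDC1 and 19.6, 31.0 and 35.7 CPM in pDC. No range overlapped another. Relb was 2.46-fold higher in cDC2 than in cDC1 (log2 1.30 ± 0.15, adjusted p = 5.12e-07), 13.8-fold higher in cDC2 than in pDC (log2 3.79 ± 0.17, adjusted p = 5.86e-14) and 5.62-fold higher in cDC1 than in pDC (log2 2.49 ± 0.16, adjusted p = 2.149e-11). Its difference between cDC2 and cDC1 was not called as greater than 2-fold (glmTreat adjusted p = 0.0774). Per kilobase of the longest coding transcript, the median level in cDC2 was 164.9 CPM for Relb, 38.9 for Irf2, 20.9 for Klf4, 7.98 for Rbpj and 6.97 for Irf4, so Rbpj and Irf4 were the least abundant. In pDC Irf2 led at 30.1 CPM per kilobase and Relb followed at 14.1.

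RELB differs from RELA in pathway, and the count ratio differed too. Rela, the subunit of the classical pathway, had medians of 93.8 CPM in cDC2, 74.5 CPM in cDC1 and 96.4 CPM in pDC, with overlapping ranges, and was not called between cDC2 and cDC1 (log2 0.20, adjusted p = 0.0955) or between cDC2 and pDC (0.13, adjusted p = 0.237). The log2 ratio of Relb to Rela was 1.92 ± 0.17 in cDC2, 0.83 ± 0.29 in cDC1 and -1.72 ± 0.21 in pDC (SD, n = 6 each). It was higher by 1.09 in cDC2 than in cDC1 and by 3.64 than in pDC (exact permutation p = 0.00216 each, adjusted 0.00278).

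Many other NF-κB genes were higher in cDC2, but not all ranked the subsets as Relb did. Of all tested genes, 25.7% were called higher and 24.8% lower in cDC2 than in cDC1, and 32.2% and 32% against pDC. Of the other 4 subunits, 3 were higher in cDC2 than in cDC1: Nfkb1 by 1.39, Rel by 1.22 and Nfkb2, the partner of RELB, by 0.36. The same count, 3 of 4, was higher than in pDC, with Rel at 3.13, Nfkb2 at 1.31 and Nfkb1 at 1.07. Among 6 genes of the inhibitor of κB (IκB) family, which include known target genes of the pathway, 5 were higher and 1 lower than in cDC1. Nfkbie at 1.51 and Bcl3 at 1.35 were highest, and Nfkbib was at -0.45. They were grouped by family, and inhibition of NF-κB was not measured. Of 8 kinases and adaptors, 6 were higher and 1 lower than in cDC1, and 6 higher and 0 lower than in pDC. Map3k14, which encodes the kinase NIK that starts the alternative pathway, was higher by 0.83 than in cDC1 and by 2.73 than in pDC. Traf3, which holds NIK in check, was higher by 0.59 and 1.27, and Chuk, encoding IKKα, was lower than in cDC1 by -0.56. Of 4 receptors that signal to RELB, 1 was higher and 0 lower in cDC2 than in cDC1 (Tnfrsf11a, encoding RANK, at 0.47). Against pDC, 3 were higher and 1 lower in cDC2, Tnfrsf13c at -0.73. Cd40 had medians of 132 CPM in cDC2, 158.4 CPM in cDC1 and 7.38 CPM in pDC, and was higher by 4.43 in cDC2 than in pDC. In cDC1 minus pDC, where Relb was higher by 2.49, 2 subunits were higher and 1 lower, Nfkb1 at -0.32. Of the IκB family genes, 2 were higher and 3 lower there, among them Bcl3 at -1.05. Of the kinases and adaptors, 5 were higher and 0 lower, where 34.3% of all tested genes were higher and 32.1% lower.

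**Figure D4:**
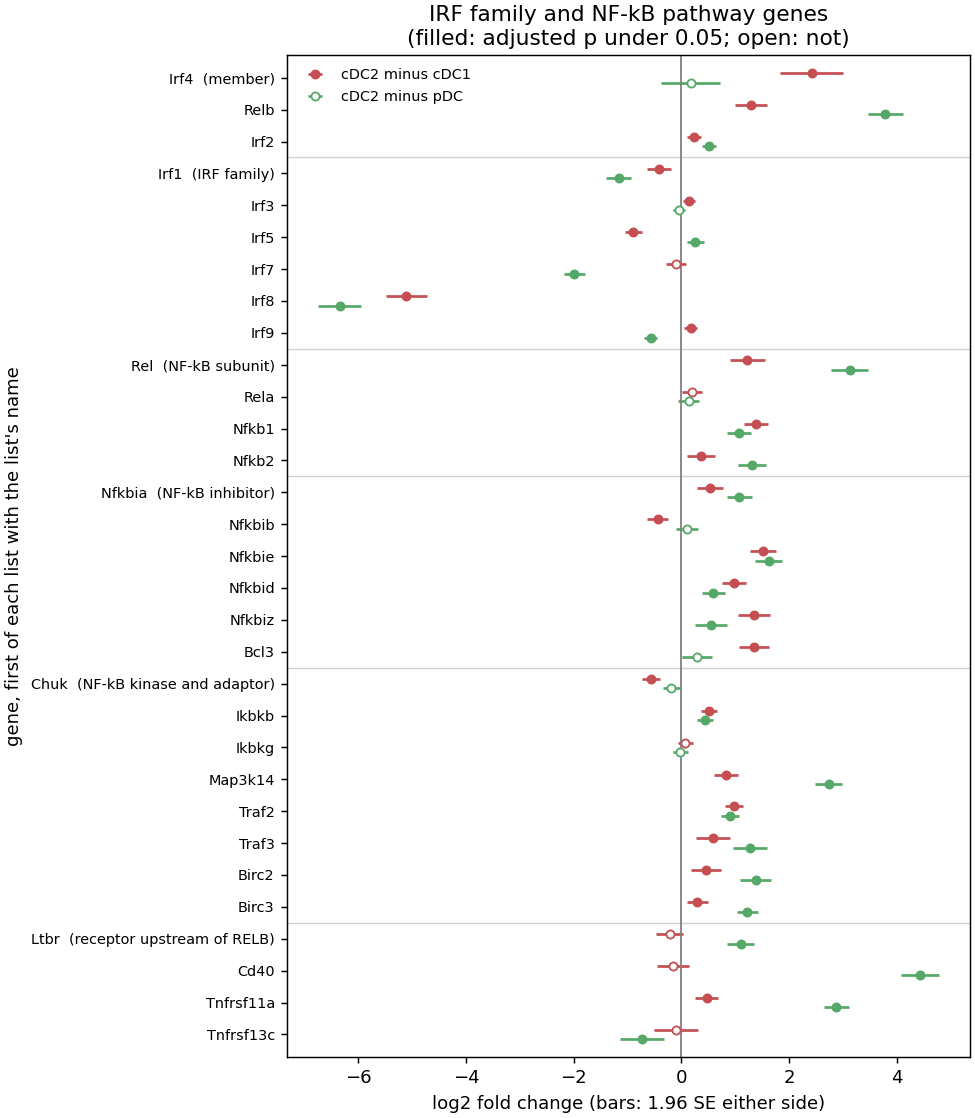
Log2 fold changes (x axis) of Irf4, Relb and Irf2 and of genes of the interferon regulatory factor family and the NF-κB pathway in cDC2 minus cDC1 and cDC2 minus pDC, with bars of 1.96 SE either side; filled points had an adjusted p under 0.05. Irf8 lies furthest left at -5.11 and -6.34, and the NF-κB subunits lie right of 0, with open points for Rela (0.20 and 0.13).

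Rbpj was the member whose level was lower in cDC2 than in cDC1. It had 34.9, 43.8 and 50.2 CPM (lowest, median, highest) in cDC2, 63.1, 75.8 and 86.8 CPM in cDC1 and 27.0, 29.0 and 37.1 CPM in pDC. All cDC1 libraries were above all cDC2 libraries. The cDC2 and pDC ranges overlapped in CPM and did not overlap after TMM scaling of library sizes. Rbpj was 1.76-fold lower in cDC2 than in cDC1 (log2 -0.82 ± 0.11, adjusted p = 1.649e-06) and 1.64-fold higher in cDC2 than in pDC (log2 0.71 ± 0.11, adjusted p = 5.457e-06). Of tested genes, 24.2% and 41.1% had a larger absolute change. Neutrophil markers were higher in cDC1, at 27.2, 73.4 and 147 CPM summed (lowest, median, highest) over 6 markers in cDC2 against 286, 587 and 1109 CPM in cDC1. Lymphocyte markers were higher in cDC1 too: 4 of 4 tested T cell, 4 of 4 tested NK cell and 4 of 5 tested B cell markers were lower in cDC2 (24.8% of all tested genes). Their summed levels ran from 4.24 to 8.49 CPM (T cell), 0.444 to 3.03 CPM (NK cell) and 81.3 to 97.5 CPM (B cell) in cDC2, against 10.2 to 19.6, 6.56 to 17.3 and 123 to 192 CPM in cDC1. The part of such cells in the Rbpj level was not tested. Without the cDC1 library with most neutrophil marker RNA, Rbpj was at -0.85 in cDC2 minus cDC1. That library also had the lowest Rbpj level in cDC1, 63.1 CPM. Every cDC1 library held 286 CPM or more of these markers, against 147 CPM or less in cDC2. Leaving out 1 library therefore cannot show their part in the Rbpj level.

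Notch pathway genes around RBPJ moved in both directions. Of all tested genes, 25.7% were called higher and 24.8% lower in cDC2 than in cDC1, and 32.2% and 32% against pDC. Notch2, the receptor tied to splenic cDC2, had medians of 32.1 CPM in cDC2, 34.4 CPM in cDC1 and 24.1 CPM in pDC, and was not called between cDC2 and cDC1 (log2 -0.01, adjusted p = 0.9654). Notch4 was lower in cDC2 than in cDC1 by -2.94 and Notch1 by -1.14, while Notch3 was higher by 1.38 at a median of 1.29 CPM in cDC2. Against pDC, 2 of the 4 receptors were lower in cDC2, Notch1 by -4.79 and Notch3 by -2.58, and 2 were higher, Notch4 by 1.53 and Notch2 by 0.68. Of the Notch coactivators, 3 of 5 were higher and 1 lower than in cDC1, with the Mastermind-like genes Maml3 at 1.96 and Maml2 at -1.58. Of 8 proteases that process Notch, 4 were higher and 4 lower, and of 6 RBPJ corepressors 2 were higher and 1 lower. Lfng, a Fringe glycosyltransferase that modifies Notch, was higher by 0.78 than in cDC1 and by 6.07 than in pDC.

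Notch target genes were higher in cDC2 than in cDC1, while Rbpj was lower. Of 6 targets listed, 4 were tested, and all 4 were higher in cDC2 than in cDC1 and 3 than in pDC (25.7% and 32.2% of all tested genes). Dtx1, encoding Deltex1, had 43.4, 95.4 and 175.3 CPM (lowest, median, highest) in cDC2, 1.02, 3.13 and 3.90 CPM in cDC1 and 0.327, 0.469 and 0.856 CPM in pDC. Hes1, the Notch-responsive repressor, had 53.5, 67.3 and 107.2 CPM in cDC2, 16.4, 20.2 and 45.7 CPM in cDC1 and 0.45, 0.60 and 0.89 CPM in pDC. Neither gene's ranges overlapped between subsets. The differences from cDC1 were 5.23 for Dtx1 (adjusted p = 5.918e-10) and 1.60 for Hes1 (adjusted p = 4.455e-06). Nrarp and Hes5 were higher by 2.33 and 1.16 than in cDC1, at medians under 1 CPM in every subset. Nrarp ran from 0.62 to 1.89 CPM in cDC2, from 0 to 0.38 CPM in cDC1 and from 0 to 0.33 CPM in pDC. It passed the filter on low counts through its cDC2 libraries. Its place among the targets called higher in cDC2 was therefore partly fixed in advance.

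**Figure D5:**
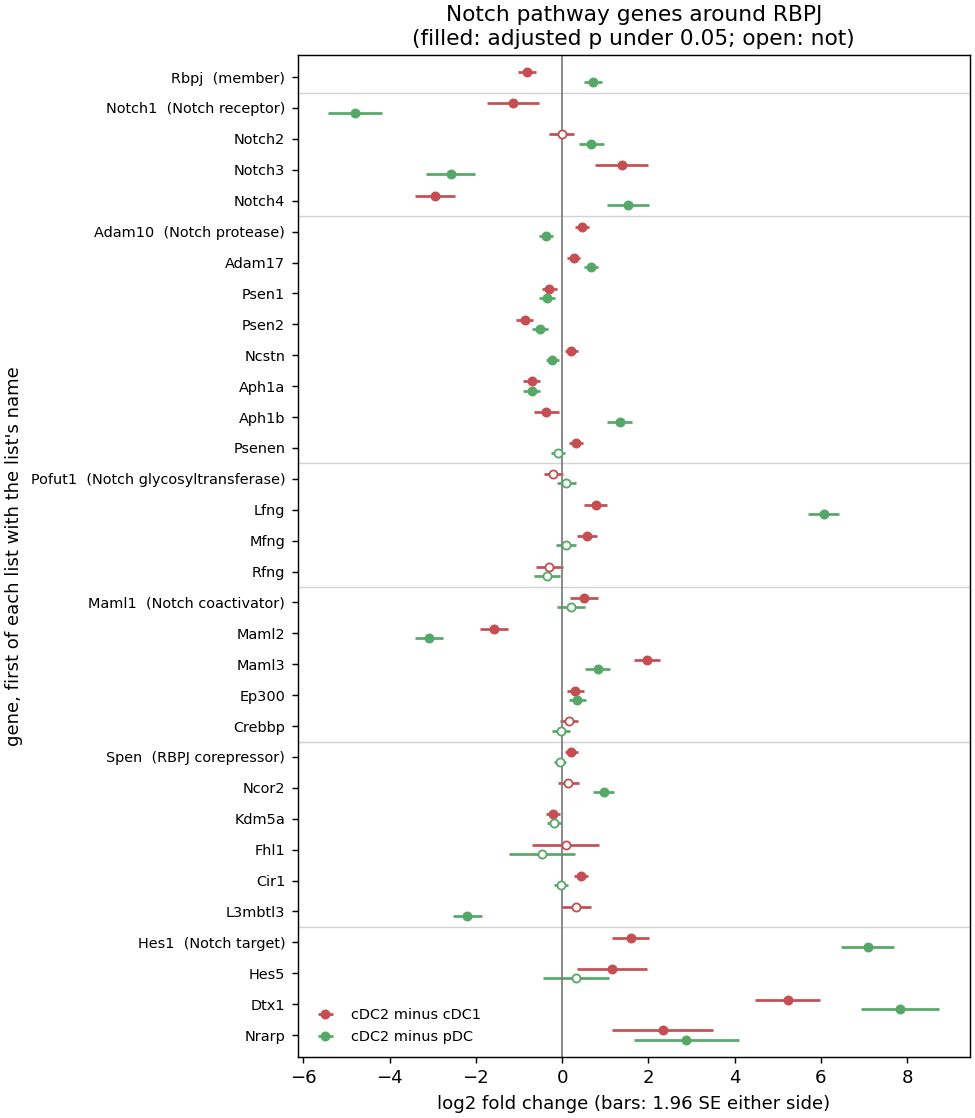
Log2 fold changes (x axis) of Rbpj and of Notch pathway genes by role in cDC2 minus cDC1 and cDC2 minus pDC, with bars of 1.96 SE either side; filled points had an adjusted p under 0.05. Rbpj lies left of 0 against cDC1 (-0.82), while Dtx1 (5.23) and Hes1 (1.60) lie right of 0.

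Genes with the most similar profile over the 18 libraries were found by the root-mean-square difference of centred log2 CPM, among tested genes. For Irf4 these were Slc2a3 (0.35), Rhob (0.40) and St8sia1 (0.40). For Klf4 they included Rras2 (0.37) and Rnf149 (0.37). For Relb they were Maff (0.26), Cd274 (0.29) and Gsto1 (0.30), and for Rbpj they were Mbp, Nf1 and Clasp1 (0.17 each, rounded). For Irf2 they included Ilf2 (0.10) and Cept1 (0.10). The median distance of all tested genes was 1.27 for Irf4, 1.24 for Klf4, 1.61 for Relb, 0.75 for Rbpj and 0.45 for Irf2. These genes were picked for their likeness, so their agreement is a description.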

How the data were processed

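The authors deposited a raw count table and a normalized table for each of 3 subsets, 6 tables and 36 value columns in all. The raw tables hold whole-number counts per gene, deposited by the authors. Per the submitters' processing notes, kallisto and DESeq2 were among the tools and GRCm38 was the build; roles and versions are not stated. The deposited normalized values, a signal per gene, equal the raw counts times 1 factor per column (relative spread at most 7.8e-16). They were used within a subset as an alternative only. Columns were assigned to a subset by table, and 0 of them to a sample or genotype.

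CPM values are counts scaled by the total of the whole raw table. Genes listed in all 3 tables (15219) and past filterByExpr (13539) entered edgeR 4.0.16 (R 4.3.3) quasi-likelihood fits with TMM scaling over 18 libraries, with subset as the only term, and p-values were adjusted by Benjamini-Hochberg over all genes tested. Standard errors were derived from the log2 fold change and its F statistic, and intervals span 1.96 SE either side. glmTreat tested against a fold of 2, and DESeq2 1.42.0 was an alternative. Ratios added 0.5 to each count and were tested by exact permutation with scipy 1.17.1, and Python 3.11.15 was used throughout. Scripts were tested on simulated counts with 200 changed genes of 13539: in cDC2 minus cDC1, 79 of 100 changed 2-fold and 99 of 100 changed 4-fold were recovered. The changes were simulated in cDC2 only, far fewer than were called in the data. The spread of each gene was set by the general trend with level. These shares therefore do not give the recovery of genes as variable as Irf4. No 2 libraries of a subset were alike within counting noise (chi-square per gene at least 9.41).

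The text names all members, up to 4 called genes per list with the largest change in the first 2 comparisons, the 3 most similar genes per member, and the ratio partners. Klf11 and Nfkbib in cDC2 minus cDC1 were added after their values were seen, to complete a count. Some genes that the rule or the lists would name are not reported here. The members and lists were chosen with earlier results of these data known.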

Additional observations from a re-analysis of the deposited data

Results flagged for a closer look

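Klf4 in cDC1 had 1 library far from the other 5: 19.8 CPM, with the next at 10.5 CPM, a gap of 0.692 of the group's range, above the critical value of Dixon's test for 6 libraries. Irf2 in pDC had 1 library at 85.1 CPM, with the next at 76.9 CPM, a gap of 0.644 of the range. Of 24 groups examined, 2 were marked this way, and chance marks about 1 in 20. Neither library has an assigned genotype.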

How the results depend on the processing

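Member values kept their direction and side of the threshold under median-of-ratios scaling, no filter, DESeq2, genes listed in any table and fits of the 2 subsets compared, and ratio differences did so with a prior of 2 counts. Total counts of called genes stayed within 1.5 times in those fits, but the near-even split turned: in cDC2 minus pDC it was 4355 higher and 4329 lower, against 4331 and 4339 with median-of-ratios scaling and 4380 and 4400 with DESeq2, and in cDC1 minus pDC 4645 and 4341, against 4327 and 4333 in the fit of 2 subsets. The test beyond a fold of 2 called 1333, 2990 and 2999 genes in cDC2 minus cDC1, cDC2 minus pDC and cDC1 minus pDC, and no longer called Relb (1.30), Rbpj (-0.82) and Irf2 (0.23) in the first, Rbpj (0.71) and Irf2 (0.51) in the second, or Irf2 (0.29) in the third, since its threshold is stricter. Leaving out each library in turn gave 6514 to 6820, 8435 to 8866 and 8713 to 9097 called genes. Without 1 library, the one with the highest Irf4, Irf4 in cDC2 minus pDC changed sign to -0.061 (range -0.061 to 0.265, adjusted p 0.437 to 0.864). Klf4 in cDC1 minus pDC ranged from -0.76 to -0.37 and was called in 2 of 18 such fits. The other 267 member values and all ratio differences kept their call in these fits. No paired analysis was possible because no replicate number is attached to any column. Genotype was not tested, and the spread between 6 libraries of both genotypes limits the precision of each comparison.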

Other observations

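The lineage factors of the other subsets showed the wider setting of the members. Zeb2, a factor of pDC and cDC2 development, had medians of 89.1 CPM in cDC2, 12.03 CPM in cDC1 and 175.6 CPM in pDC, and was higher by 3.005 in cDC2 than in cDC1. Id2, an inhibitor of E proteins needed for cDC1, had medians of 753.3 CPM in cDC2, 2086 CPM in cDC1 and 22.7 CPM in pDC. Of 6 pDC factors, 5 were higher in cDC2 than in cDC1 and 5 lower in cDC2 than in pDC (25.7% and 32% of all tested genes). Tcf4, a regulator of pDC identity, was lower by -4.14 in cDC2 than in pDC. The 4 Notch2-dependent splenic cDC2 genes were higher in cDC2 than in cDC1, with Clec4a4 at 5.96 and Esam at 2.80. Against pDC, 3 of them were higher and 1 lower in cDC2. These genes are also on the lists of cDC2 markers or Notch targets above, so they add no separate count. Of 4 genes listed for the ESAM-low cDC2 fraction, 2 were higher and 2 lower in cDC2 than in cDC1 (25.7% and 24.8% of all tested genes).

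No library could be assigned a genotype, so the following values, in the order of each table, are given without a comparison. In cDC2, Hdac1 was at 76.5, 66.1, 79.7, 6.07, 5.78 and 7.6 CPM. In cDC1, Hdac1 was at 57, 71.8, 74.6, 5.14, 4.94 and 9.49 CPM. In pDC, Hdac1 was at 113.6, 109.7, 124.3, 13.1, 9.52 and 14.7 CPM. These values fall into 2 separate clusters of 3 libraries within each subset. Irf4 was at 63, 39.7, 46.5, 26.7, 24.6 and 25.5 CPM in cDC2. Irf4 was at 13.6, 7.33, 9.38, 3.17, 3.71 and 5.47 CPM in cDC1. Irf4 was at 48.1, 24.6, 43.6, 34, 36.5 and 43 CPM in pDC. Irf2 was at 100.9, 95.6, 92.6, 77.9, 98.75 and 101.9 CPM in cDC2. Its values were 83.2, 76.95, 72.3, 71.9, 81.1 and 98 CPM in cDC1. They were 73.2, 76, 72.3, 85.1, 74.5 and 76.9 CPM in pDC. In cDC2, Klf4 was at 66.2, 46.5, 41.9, 64.8, 61.8 and 73.7 CPM, Relb at 347.1, 264.1, 272, 424.5, 423.9 and 381.2 CPM and Rbpj at 50.2, 49.4, 48.5, 34.9, 39.1 and 37.5 CPM. In cDC1, Klf4 was at 19.85, 6.29, 8.6, 6.965, 8.57 and 10.46 CPM. Relb was there at 169.5, 172.1, 111.8, 143.8, 103.1 and 156.9 CPM and Rbpj at 86.8, 79.2, 74.3, 73.2, 63.1 and 77.3 CPM. In pDC, Klf4 was at 20.8, 9.75, 18.2, 16, 15.5 and 16 CPM. Relb was there at 28.2, 19.6, 31.4, 35.7, 31.1 and 31 CPM and Rbpj at 31.9, 37.1, 27.7, 28.5, 29.5 and 27 CPM.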
